A study of Homo sapiens with 6 samples.

Results

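The CHD genes encode chromodomain helicase DNA-binding proteins, ATP-driven enzymes that move, space or evict nucleosomes. The rule took CHD1 to CHD9, a list of 9 genes, and for each gene the probe set whose mean over the 6 arrays was highest. Of the 9 genes, 8 had a probe set paired with their symbol, out of 17687 genes measured in all. Each of the 8 had 1 probe set, and CHD2 was not analysed here. Each probe set was selected on its mean level, and the family was chosen with earlier differences between these groups known, among them that of CHD7. Its differences are therefore given as a description.

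The cells were Jurkat, an established human line of T cell leukaemia (T-ALL), so all samples come from 1 line and 1 genome. The suspension group was 3 samples kept in serum-containing RPMI medium for 3 h. The 3D group was 3 samples mixed into bovine type I collagen at 1.7 mg/mL before it set, and then covered with the same medium, for 3 h in all. In each group the samples are labelled as biological replicates 1 to 3, without a word on what sets them apart, so p-values measure only the spread between these samples. Values are the deposited log2 expression of each probe set on a whole-transcript array. A difference of 1 on this scale is 2-fold, and levels of different probe sets cannot be ranked against each other.

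CHD proteins share paired chromodomains and an ATPase of the SNF2 type. They fall into 3 subfamilies. CHD1 and CHD2 act at transcribed genes and promoters. CHD3, CHD4 and CHD5 are alternative motors of NuRD, the nucleosome remodelling and deacetylase complex, and CHD4 is needed in thymocytes for CD4 expression. CHD6, CHD7, CHD8 and CHD9 form the last subfamily, which includes the enhancer-bound CHD7, whose loss causes CHARGE syndrome, and CHD8, which binds beta-catenin.

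The question was how expression after 3 h in collagen compares with suspension. CHD9 stood highest among the members, with a value in 3D 1.96-fold that of suspension, followed by CHD7 at 1.49-fold and CHD1 at 1.38-fold. The NuRD motors CHD3, CHD4 and CHD5 had differences between -0.29 and 0.04 log2, and CHD8 had 0.05. None of the 8 passed the test over all genes, which called 0 of 17687 genes at an adjusted p under 0.05 (limma, Benjamini-Hochberg, 0% called). An equal-variance test without moderation also called 0 genes. At an unadjusted p under 0.05, limma marked 3 of 8 members, all higher in 3D. Over all genes the same rule marked 9.87%, with 5.9% higher and 3.97% lower. The count of members was 2 without suspension replicate 1 or 2, or 3D replicate 1 or 3, where CHD1 no longer passed.

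CHD9, described as a coactivator of nuclear receptors, is shown first because its difference was the widest. In suspension it measured 6.13, 6.02 and 5.69 in replicates 1, 2 and 3, and in 3D 7.10, 6.60 and 7.03. Every 3D value lay above every suspension value, with suspension replicate 1 the highest of its group and 3D replicate 2 the lowest of its own. The mean was 5.95 ± 0.23 (SD, n = 3) for suspension and 6.91 ± 0.27 (SD, n = 3) for 3D. Their log2 difference was 0.97 ± 0.19 (SE), with a 95% interval of 0.54 to 1.39 (limma). Its p ranked 17 among the 17687 genes, and the adjusted p was 0.330. Within replicate numbers the differences were 0.98, 0.58 and 1.35, higher in 3 of 3 pairs. The call depended on the setting. With the replicate number as a block and only the 8342 genes of mean at or above 6, CHD9 had an adjusted p of 0.000314 (limma), in a fit that called 14.4% of its genes. Its suspension mean lies under 6, so it passed that filter only through its 3D values, and nothing is rested on this call. With the block and without pair 2 it was 0.0147 (limma), where 0.848% of genes were called.

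The RefSeq promoter table (GRCh38.p14) lists 4 starts for CHD9 and 1 for CHD1. The probe set gives 1 value per gene, so which start the CHD9 transcripts came from was not measured. CHD9 is the member of widest difference, and CHD1 the next of those whose entries were read. The 100 bases before the first 2 CHD9 starts and before the CHD1 start are printed. They lie at chr16:53054891-53054990 (plus strand), chr16:53130912-53131011 (plus strand) and chr5:98929008-98929107 (minus strand). Capitals mark the dinucleotide CG.
CHD9 start 1: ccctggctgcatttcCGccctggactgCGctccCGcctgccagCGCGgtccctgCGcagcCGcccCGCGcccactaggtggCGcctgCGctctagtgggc
CHD9 start 2: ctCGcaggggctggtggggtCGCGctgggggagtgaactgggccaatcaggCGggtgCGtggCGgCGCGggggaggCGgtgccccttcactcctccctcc
CHD1 start 1: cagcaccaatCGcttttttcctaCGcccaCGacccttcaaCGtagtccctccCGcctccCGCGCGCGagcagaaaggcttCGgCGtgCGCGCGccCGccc

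These windows hold 11, 9 and 15 CG pairs. Of 35116 windows of the same length in the table, 84.3% hold CG at least once and the median is 5. At least 15 were found in 9.56% of windows, so the CHD1 start is CG-dense, and at least 11 in 25.2%. The other two CHD9 starts each hold 1. Entries of 5 of the 8 measured members were read. Entries on chromosome 8, where CHD7 lies, were left out. Those of CHD3 and CHD8 hold 7 CG pairs and that of CHD4 holds 5, near the median.

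CHD7, a remodeller of enhancers, measured 4.73, 4.83 and 4.93 in suspension (replicates 1, 2 and 3, as for the genes that follow) and 5.57, 5.42 and 5.25 in 3D. The groups did not overlap, with an SD of 0.10 in suspension and 0.16 in 3D. The difference was 0.58 ± 0.16 (SE), with a 95% interval of 0.23 to 0.93 and an adjusted p of 0.380 (limma). It was higher in 3 of 3 pairs, by 0.84, 0.59 and 0.31. The mean over the 6 arrays, 5.12, lies under 6, the limit of the filter on dim probe sets. As a rough scale, 44 markers of other cell types had a median level of 4.07 and a 90th percentile of 6.61. CHD7 and CHD9, the latter at a mean of 6.43, lie under that percentile. Without a detection call, how clearly either was expressed is uncertain.

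CHD1, which binds the promoter mark H3K4me3 and travels with elongating RNA polymerase, measured 8.34, 8.28 and 8.80 in suspension and 9.03, 8.83 and 8.96 in 3D. The groups did not overlap, but suspension replicate 3 stood just under the lowest 3D value. The difference was 0.47 ± 0.18 (SE), with an adjusted p of 0.447 (limma). The pair differences were 0.68, 0.56 and 0.17. With the block over all genes the adjusted p of CHD1 was 0.171 (limma). Adding the filter at a mean of 6 gave 0.0271 (limma), in a fit that called 14.4% of its genes. Both group means of CHD1 lie above 6.

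CHD6, a member of the same subfamily as CHD7 and CHD9, measured 7.30, 6.66 and 7.35 in suspension and 7.46, 7.40 and 7.40 in 3D. The 3D samples were close together (SD 0.03), and suspension replicate 2 stood below all the others. The difference was 0.32 ± 0.20 (SE), with an adjusted p of 0.606 (limma), and it was 0.10 without suspension replicate 2. The groups did not overlap, but the pair differences of 0.16 and 0.05 in replicates 1 and 3 were small beside 0.74 in replicate 2.

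CHD8, the beta-catenin-binding member of that subfamily, measured 9.09, 9.08 and 8.97 in suspension and 9.08, 9.15 and 9.05 in 3D. The groups overlapped, and the SDs were small, 0.07 and 0.05. The difference was 0.05 ± 0.15 (SE), with a 95% interval of -0.28 to 0.37 and an adjusted p of 0.932 (limma), and it turned to -0.01 after quantile normalization once more. The interval leaves room for a change of the size measured for CHD6, so it does not show that CHD8 was level.

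CHD4, the main NuRD motor of most cells, measured 7.98, 7.80 and 8.01 in suspension and 7.77, 8.13 and 8.0 in 3D. The samples of both groups were mixed in order, and the pair differences had both signs (-0.22, 0.33 and -0.01). The difference was 0.04 ± 0.16 (SE), with an adjusted p of 0.956 (limma) and a 95% interval of -0.33 to 0.40. Its sign turned when suspension replicate 2 or 3D replicate 2 was left out and after quantile normalization once more.

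CHD3, the other widely expressed NuRD motor, measured 6.92, 6.83 and 6.54 in suspension and 6.21, 6.69 and 6.70 in 3D. The groups overlapped, and 3D replicate 1 was the low sample. The difference was -0.23 ± 0.19 (SE), with an adjusted p of 0.700 (limma), and -0.06 without 3D replicate 1. Pair differences were -0.71, -0.14 and 0.17.

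CHD5, a NuRD motor known from neurons and testis, measured 2.93, 3.00 and 3.63 in suspension and 3.01, 2.77 and 2.90 in 3D. All values were low on the array's scale, which ran from 1.97 to 13.58. No detection call was used here, so whether CHD5 was expressed is uncertain. The difference was -0.29 ± 0.20 (SE), with an adjusted p of 0.633 (limma), and -0.07 without suspension replicate 3, the 1 high sample.

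**Figure D1:**
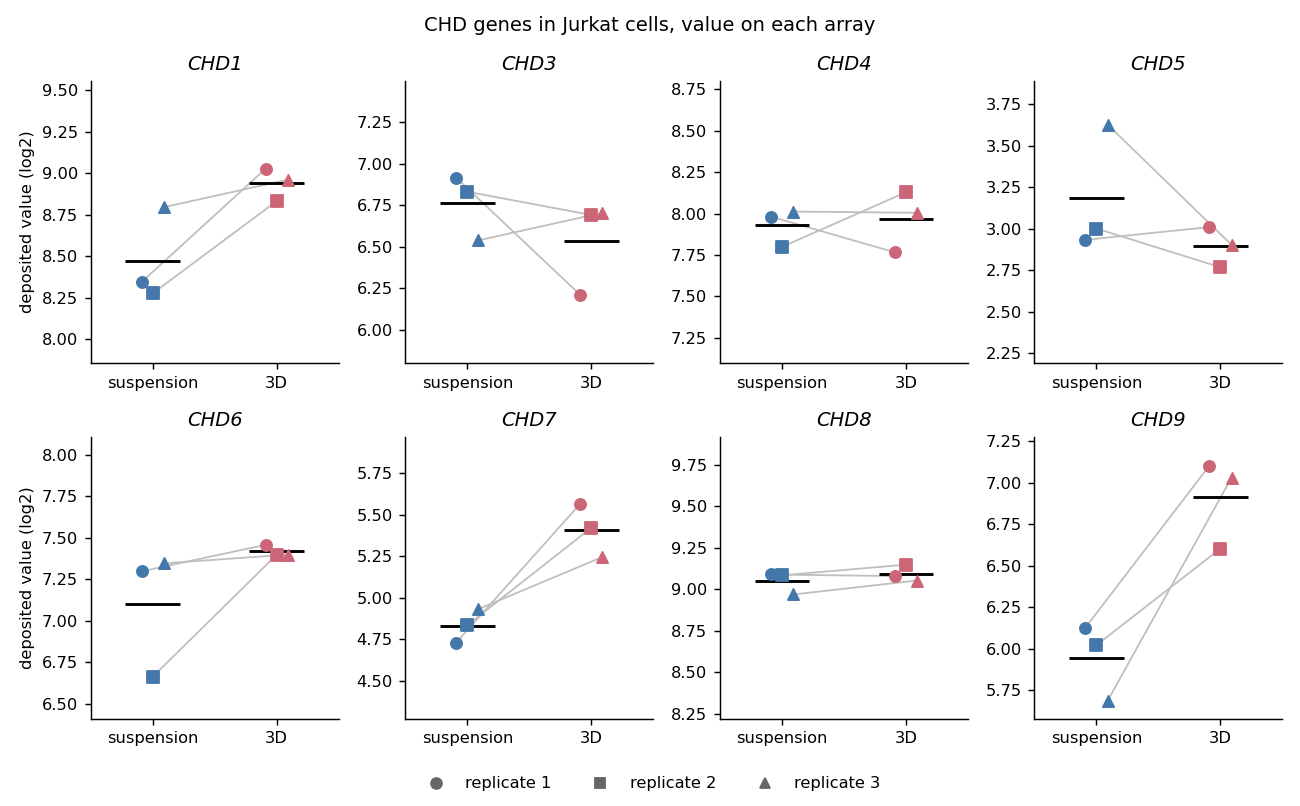
Deposited log2 value of each of the 8 measured CHD genes on each array, suspension (blue) and 3D (red), with 1 symbol per replicate number, grey lines joining equal numbers and black bars at group means; each panel spans the same log2 range around its own mean. CHD1, CHD6, CHD7 and CHD9 show groups that do not overlap, with CHD9 at means of 5.95 and 6.91, and in CHD6 the gap rests on suspension replicate 2 at 6.66.

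By subfamily, CHD9, CHD7, CHD6 and CHD8 had differences of 0.97, 0.58, 0.32 and 0.05, CHD1 had 0.47, and CHD3, CHD4 and CHD5 had -0.23, 0.04 and -0.29. Over the 8 members the median difference was 0.18, with 6 positive and 2 negative, and after quantile normalization once more 4 positive and 4 negative as CHD4 and CHD8 crossed 0. The median over all genes was -0.02, with 47.4% positive. The groups did not overlap for 4 of the 8 members, all higher in 3D, and for 16.3% of all genes (8.28% higher, 8.03% lower). Likewise 4 of 8 were higher in all 3 pairs and 0 lower in all 3, against 20.3% and 19.8% of all genes. The median of the members was 0.12, 0.44 and 0.12 in pairs 1, 2 and 3, and 0.08 without suspension replicate 2. Since the members were chosen with such values known, these counts carry no test.

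The members differed in how their values ran over the 6 arrays. Each gene's 6 values were centred and compared by root mean square difference over the 28 pairs of members. This distance takes in the difference between groups, so it does not show whether members moved together within a group. CHD4 and CHD8, the steadiest genes, were closest (0.13), followed by CHD1 and CHD7 (0.16) and CHD1 and CHD6 (0.19). CHD5 and CHD9 were the most distant (0.73). CHD9 lay no closer than 0.32 to any other member, the distance to CHD7. Among all other genes the 3 nearest to CHD9 were DDR2, a collagen receptor kinase gene (0.14), ANKRD36C, an ankyrin repeat gene (0.15), and NABP1, a single-stranded DNA-binding protein gene (0.17). Their differences, 0.72, 1.02 and 0.77, are near that of CHD9 by this choice, and the likeness rests on 6 arrays only. DDR2 was low, at 3.60 to 4.81, near the median level of 4.07 of 44 markers of other cell types. Whether DDR2 was expressed is uncertain.

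The spread between replicate numbers, given as a description, differed among the members. For CHD7 the means of equal-numbered arrays spanned 0.06, against a difference of 0.58 between groups. That small span hides opposite trends. CHD7 rose with replicate number in suspension (4.73, 4.83 and 4.93) and fell in 3D (5.57, 5.42 and 5.25). Its pair differences went from 0.84 to 0.31. For CHD9 they spanned 0.30 against a difference of 0.97, and for CHD1 0.32 against 0.47. For CHD6, CHD8, CHD4 and CHD5 the span between numbers (0.35, 0.11, 0.13 and 0.38) was larger than the size of the difference between groups.

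CHD genes are long, and long genes as a whole had slightly higher differences. RefSeq gene spans (GRCh38.p14) were 273 kb for CHD9, 216 kb for CHD6 and 189 kb for CHD7, all in the longest quintile of measured genes. CHD5, CHD1 and CHD8 spanned 78.5, 75 and 70.9 kb in the next quintile, and CHD4 and CHD3 spanned 37.3 and 28.0 kb in the middle one. The median difference was 0.06 in the longest quintile, 0.05 in the next and -0.02 in the middle one. Within its own quintile the difference of CHD9 stood at the 99.7th percentile, that of CHD7 at 95.5, that of CHD1 at 92.1 and that of CHD6 at 80.8. CHD8 and CHD4 stood at 49.2 and 58.5, and CHD3 and CHD5 at 19.1 and 7.58. With each array's linear trend on span and number of neighbours removed, the differences were 0.86 for CHD9, 0.47 for CHD7, 0.37 for CHD1 and 0.22 for CHD6. They were 0.14 for CHD4, 0.06 for CHD8, -0.04 for CHD3 and -0.31 for CHD5, so the value of CHD3 came close to 0. CHD9, CHD1 and CHD7 also have few protein-coding neighbours within 500 kb (4, 1 and 2), where CHD3 and CHD4 have 55 and 40. The part of span in these differences was otherwise not tested.

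**Figure D2:**
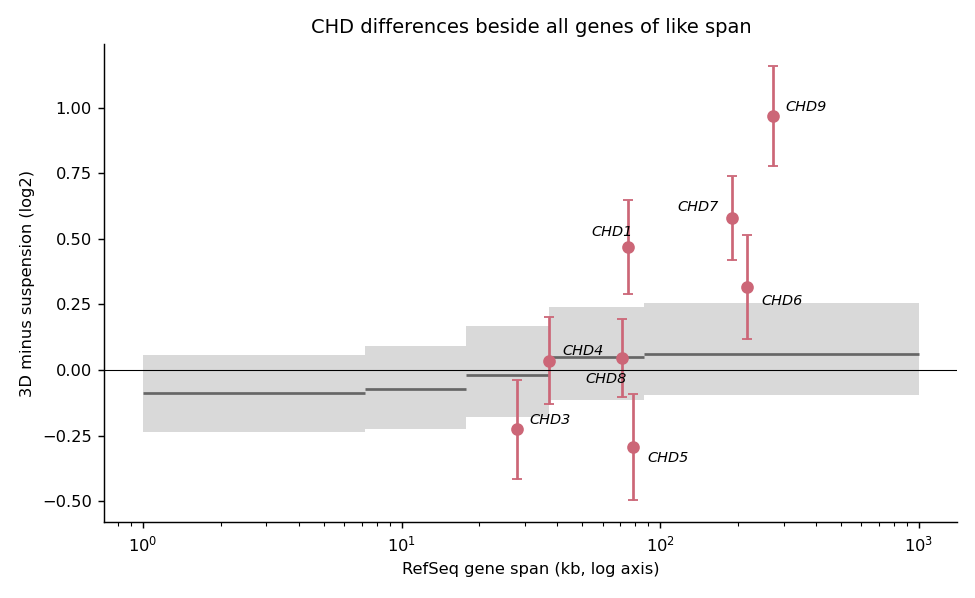
Difference (3D minus suspension, log2, with SE from limma) of each CHD gene against its RefSeq span in kb on a log axis; grey lines and bands give the median and middle 50% of all genes in each quintile of span. CHD9, CHD7, CHD1 and CHD6 lie above the band of their quintile, CHD4 and CHD8 lie inside it (both turn slightly negative after quantile normalization once more), and CHD3 and CHD5 lie below it.

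Genes that work with CHD proteins or form other remodellers were read from 8 lists holding 124 genes, of which 116 were measured. Of these, 0 passed over all genes, with and without the replicate block, which itself called 16 genes (0.0905%). At an unadjusted p under 0.05 (limma) 10 were higher and 3 lower, or 11.2% against 9.87% of all genes. The median difference of the 116 was 0.05.

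The NuRD partners of CHD3, CHD4 and CHD5 had a median difference of 0.05 over 11 genes, with 0 at an unadjusted p under 0.05 (limma). MBD3, a core subunit of NuRD, measured 7.64, 7.53 and 7.85 in suspension and 7.40, 7.35 and 7.22 in 3D, a difference of -0.35 ± 0.16 (SE). RBBP7, a histone-binding subunit, had 0.25 ± 0.17 and GATAD2B, a scaffold subunit, -0.20 ± 0.18. Of 14 genes that bring CHD4 to chromatin or bind with it, 1 was higher and 1 lower at that limit, with a median of 0.07. The higher was IKZF3, the lymphoid factor Aiolos, at 0.55 ± 0.18, and the lower was SALL4, a zinc finger factor, at -0.35 ± 0.15. ADNP, which joins CHD4 and HP1 in the ChAHP complex, had 0.29 ± 0.15. Its groups did not overlap, as for 16.3% of all genes.

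Elongation factors and histone chaperones that work with CHD1 and CHD2 had a median of -0.01 over 15 genes. CDC73, a subunit of the PAF1 elongation complex, was the 1 gene at an unadjusted p under 0.05 (limma), at 0.37 ± 0.16. ASF1A, a histone H3-H4 chaperone, had 0.36 ± 0.17 and H3-3B, a gene of the replacement histone H3.3, 0.21 ± 0.16. Partners of CHD7 and CHD8 had a median of 0.01 over 16 genes, with 0 at that limit. TET1, a methylcytosine oxidase gene, had 0.33 ± 0.17, FAM124B -0.46 ± 0.26 and KDM6A, an H3K27 demethylase gene, 0.26 ± 0.15. FAM124B was low, with a mean of 2.90 over the arrays, so whether it was expressed is uncertain. Its pair differences had both signs (-0.98, -0.66 and 0.26).

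Among the other remodeller families, ISWI genes had a median of 0.21 over 11 genes, and 2 were higher at an unadjusted p under 0.05 (limma). These were RSF1, a histone-binding subunit (0.41 ± 0.16), and SMARCA1, an ISWI ATPase (0.38 ± 0.16). BAZ1A, an accessory subunit, had 0.40 ± 0.19. The ISWI median was 0.10 without suspension replicate 1, where 0 of its genes were at that limit, and 0.11 without 3D replicate 3. Of the INO80, SRCAP and EP400 complex genes 19 were measured, without SRCAP and EP400 themselves. They had a median of -0.12, with 1 lower. That was TFPT, an INO80 subunit (-0.54 ± 0.24), beside UCHL5, a deubiquitinase of the same complex (0.34 ± 0.17), and ACTR8, an actin-related subunit (-0.32 ± 0.17). This median was -0.02 without suspension replicate 1 and -0.05 without 3D replicate 3. SWI/SNF genes had a median of 0.02 over 18 genes, with 1 higher and 1 lower. ARID2, a subunit of the PBAF form, had 0.43 ± 0.15, SMARCD3, an accessory subunit, -0.42 ± 0.16 and SMARCA2, an ATPase, 0.40 ± 0.19. The medians of the SWI/SNF genes, the NuRD partners, the CHD1 and CHD2 partners and the CHD7 and CHD8 partners, all near 0, took both signs when 1 array was left out.

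Other SNF2-family ATPases, which share the motor fold of CHD proteins outside the remodeller families above, had the highest median of the 8 lists, 0.36 over 14 genes, with 12 positive and 2 negative. At an unadjusted p under 0.05 (limma) 5 of the 14 were higher and 0 lower, against 5.9% and 3.97% of all genes. The lists were chosen with earlier results of these data known, so this count carries no test. BTAF1, which removes TATA-binding protein from DNA, measured 8.44, 8.48 and 8.57 in suspension and 9.22, 8.99 and 9.05 in 3D, a difference of 0.59 ± 0.15 (SE). HELLS, a remodeller needed for DNA methylation at repeats, measured 9.07, 8.67 and 8.72 in suspension and 9.58, 9.41 and 9.37 in 3D, or 0.64 ± 0.17. SHPRH, a ubiquitin ligase with a SNF2 motor, had 0.58 ± 0.17. Their adjusted p was 0.369, 0.380 and 0.380 (limma). The groups did not overlap for these 3, nor for 16.3% of all genes. The 3 were named for the smallest p in the list, so the lack of overlap follows largely from that choice. Over the settings tried the list's median ran from 0.20 to 0.48, and it was 0.29 with the trend on span and neighbours removed.

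**Figure D3:**
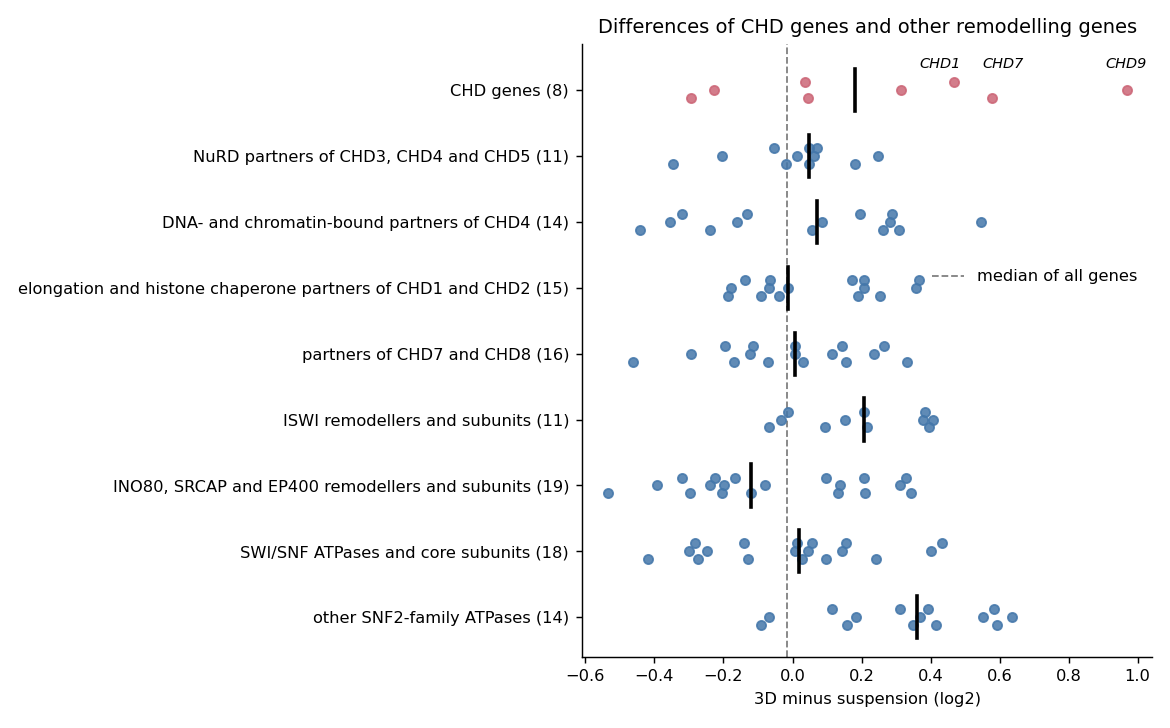
Difference (3D minus suspension, log2) of each measured gene, 1 point per gene, for the 8 CHD genes (red) and the 8 lists of partners and other remodellers (blue, number measured in brackets); black bars are list medians and the dashed line is the median of all genes. CHD9 at 0.97 lies to the right of every listed gene, the highest of which is HELLS at 0.64, and the list of other SNF2-family ATPases has the highest median, 0.36.

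The medians of the 6 arrays ran from 5.55 to 5.64, and with 3 arrays a group precision is limited throughout. Of 13 T cell markers, checked because the line is labelled as T-ALL, all were measured, with means from 6.45 for BCL11B to 11.74 for LEF1. Their summed log2 level was 119 to 121 in suspension and 116 to 120 in 3D, with a median difference of -0.21. Of these and of 44 markers of other cell types 0 genes passed over all genes (limma). At an unadjusted p under 0.05 there were CD247 and 1 erythroid marker, both lower in 3D. The same limit marked 9.87% of all genes. In such bulk samples fewer cells of a type and less RNA per cell cannot be told apart, and the part of either in the differences of the CHD genes was not tested.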

How the data were processed

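Each column of the deposited table holds the log2 expression of 1 array, in a row per probe set. The authors made it with RMA and the Transcriptome Analysis Console, per the submitters' processing notes; their versions and the genome build are not given in the sources used here. That method corrects background, brings arrays to a common distribution and shrinks differences of dim probe sets. The platform annotation gave 1 symbol for 17709 of the 21448 probe sets, several for 0 and none for 3739. For genes with several probe sets the highest mean was kept.

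All 17687 genes were fitted with limma 3.58.1 (R 4.3.3), lmFit and eBayes, two-sided, with Benjamini-Hochberg adjustment and a threshold of 0.05; the spread had 6.79 prior degrees of freedom beside 4 residual ones. The fit was checked on simulated data. All members were named, with the 3 genes of smallest p in each list; members and lists were chosen with earlier results of these data known. After group means were subtracted, equal-numbered arrays correlated at 0.521, 0.120 and 0.337, over the limit of 0.1 set here for treating them as pairs. Number 2 did not match its own partner best. Suspension 2 correlated better with 3D 3 (0.230), and 3D 2 better with suspension 3 (0.149). The labels do not state a pairing. Although the limit was passed, the fit reported held no replicate block, which was run as a separate setting. With the block 16 genes were called, and CHD9 had an adjusted p of 0.0536 (limma). Plots used matplotlib 3.10.9.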

Additional observations from a re-analysis of the deposited data

How the results depend on the processing

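Beside the fit reported, 17 settings were run. The replicate block called 16 genes, and 21, 150 and 36 without pair 1, 2 or 3; limited to genes of mean at or above 6 it called 1199. Of the CHD genes the block called 0, with CHD9 at an adjusted p of 0.0536 (limma). Leaving out 1 pair as well it called 0 to 1, and CHD9 was that 1, without pair 2. Together with the filter at 6, which removed CHD5 and CHD7, the block called 2 of 6 CHD genes, CHD1 and CHD9, the latter admitted through its 3D values alone. It also called 11 of 102 listed remodelling genes (8 higher, 3 lower), or 10.8% against 14.4% of all genes in that fit. Over all settings the adjusted p of CHD9 ran from 0.000314 to 0.759 and its difference from 0.78 to 1.16. CHD1, CHD5, CHD6, CHD7 and CHD9 kept their sign in every setting that held them. With 1 array left out, CHD4 ran from -0.045 (without 3D replicate 2; -0.030 without suspension replicate 2) to 0.14. It turned to -0.11 with the replicate block and without pair 2, and to -0.019 after quantile normalization once more. CHD8 turned to -0.0088 after that normalization, and CHD3 to 0.013 with the block and without pair 1; the cause was not tested. The members' median ran from 0.08 to 0.26 when 1 array was left out. Quantile normalization moved the median of all genes from -0.016 to -0.027.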
